A study of Homo sapiens with 12 samples.

Results

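Among 10143 protein-coding genes measured in C4.2B prostate cancer cells, 75 stayed near their vehicle level when AKT or EZH2 was inhibited alone and moved away from it when both were inhibited together. Of these, 33 were higher and 42 were lower with both agents, and the 2 groups are described apart as higher and lower members. They were selected on the normalized counts themselves. A gene entered when its mean over the 12 libraries was at least 100, when the ratios of the AKTi mean and of the EZH2i mean to the DMSO mean both lay between 0.8 and its reciprocal (1/0.8), and when the ratio of the combination mean to the DMSO mean was at least 1.8 (higher) or at most 0.55 (lower). Only gene names that occur once and are annotated as protein coding were eligible (19907 names of the 58735 genes in the count table, 10143 of them with a mean of at least 100), and 3123 of the eligible genes met the single-agent band. Because these ratios chose the genes, the values below are a description of them. No p-value is given for a member, and counts of members that passed a test are set beside the share of all genes that did and support nothing further.

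C4.2B is a castration-resistant human prostate cancer line of the LNCaP lineage. All 4 arms were cells of this 1 line, with 3 libraries each, collected after 24 hours in medium with 10% charcoal-stripped FBS. Vehicle controls received DMSO. Ipatasertib, which blocks AKT, was given at 0.25 μM (the AKTi arm), tazemetostat, which blocks EZH2, at 1 μM (the EZH2i arm), and the combination arm received both at the same doses. Cells of the EZH2i and combination arms had received tazemetostat for 6 days beforehand. Libraries held 14133755 to 22276417 counts each. The luminal prostate identity of the cells was visible in every library, with the secreted luminal protein KLK3 at 1250 CPM (counts scaled to library size) or more and the luminal keratins KRT8 and KRT18 at 226 CPM and 241 CPM or more. All 5 leukocyte and all 3 basal epithelial markers were below 1 CPM throughout. Of 6 fibroblast markers, 3 were below 1 CPM throughout and 1, COL1A1, was above it in every library, at 4.04 to 6.37 CPM in DMSO, 15.6 to 18.2 CPM with EZH2i and 10.5 to 15.5 CPM in the combination. The summed level of the 6 was 5.93 to 8.75 CPM in DMSO, 7.36 to 8.71 CPM with AKTi, 19.3 to 20.9 CPM with EZH2i and 13.2 to 17 CPM in the combination. Luminal markers differed in both directions, KLK3 going from 1250 to 1300 CPM in DMSO to 4160 to 4260 CPM in the combination and HOXB13 from 375 to 412 CPM to 310 to 318 CPM. The share of counts on mitochondrially encoded genes also differed between arms, from 2.37% to 3.36% in DMSO, 3.93% to 4.29% with AKTi and 4.35% to 5.31% with EZH2i to 5.14% to 5.64% in the combination. The part of any of these in the values below was not tested.

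AKT is a kinase downstream of PI3K that drives growth, glucose uptake and protein synthesis, and EZH2 is the catalytic subunit of Polycomb repressive complex 2 (PRC2), which places the repressive H3K27me3 mark on chromatin. In advanced prostate tumors AKT is often constantly active and EZH2 is often overexpressed. Several of the selected genes work in the unfolded protein response, the program by which cells adapt the endoplasmic reticulum (ER) to misfolded proteins. It is started by the ER membrane sensors IRE1α (ERN1), ATF6 and PERK (EIF2AK3).

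The higher members included ER stress sensors, chromatin regulators, transcription factors and stress kinases, and the lower members included the splicing protein SNRNP70, the DNA-repair protein BARD1, the isocitrate dehydrogenase genes IDH2 and IDH3A and the heat shock protein HSPB1. ADM2, a secreted peptide hormone of the calcitonin family, had the largest ratio to DMSO in the combination (3.44), followed by MTURN, a regulator of neural differentiation (2.82), ERN1 (2.45), BEST1, a calcium-activated chloride channel (2.44), and PHF1, an accessory subunit of PRC2 (2.33). Lowest were DDIT4L, a relative of the mTORC1 inhibitor REDD1, and PLCH1, a phospholipase C, at 0.359 each, SNRNP70, the 70K protein of the U1 spliceosomal particle, at 0.373, and BARD1, the partner of BRCA1 in DNA repair, at 0.391. The median ratio was 1.92 among the 33 higher genes and 0.508 among the 42 lower genes.

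**Figure D1:**
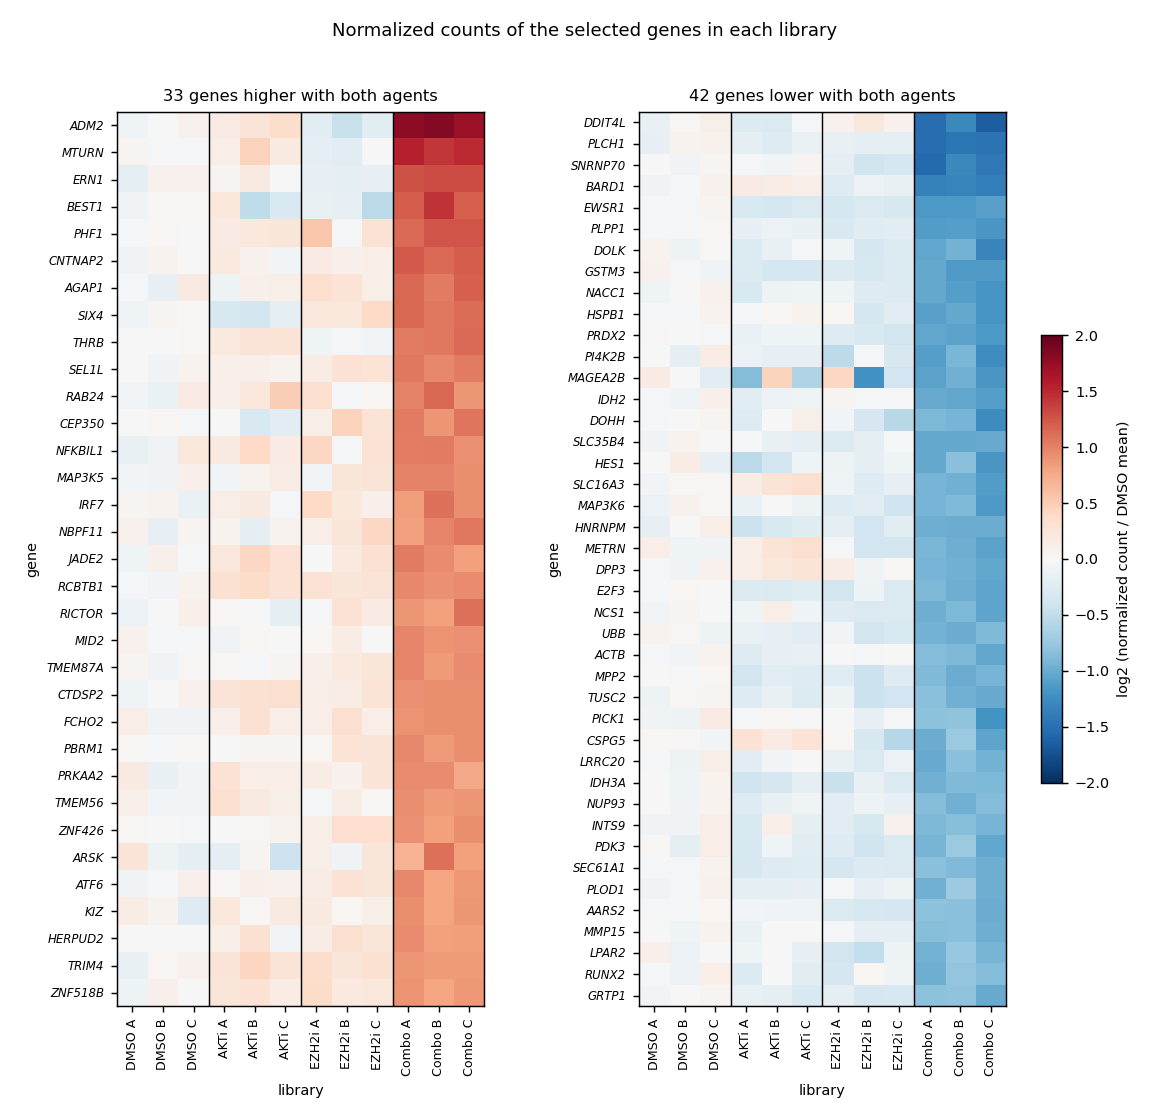
Normalized count of each selected gene in each of the 12 libraries, as the log2 ratio to the gene's DMSO mean (color scale), with 33 higher genes on the left and 42 lower genes on the right, in order of the combination ratio. The 3 combination libraries (right-hand block of each map) stand apart from the other 9 for every gene except MAGEA2B, whose AKTi and EZH2i libraries spread widely.

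Promoter sequences are given for the ER stress genes that were higher with both agents, for ADM2 as the gene with the largest ratio, and for E2F3 and HES1 as examples of transcription factors that were lower. These are the 250 bases before the RefSeq start of transcription on GRCh38.p14, written 5′ to 3′ along the gene's strand, with CCAAT boxes (CCAAT or its reverse complement ATTGG, the core bound by NF-Y) in capitals. ADM2 is at chr22:50481293-50481542 (plus strand), ERN1 at chr17:64130145-64130394 (minus strand), SEL1L at chr14:81533854-81534103 (minus strand), ATF6 at chr1:161766070-161766319 (plus strand), E2F3 at chr6:20401629-20401878 (plus strand) and HES1 at chr3:194135898-194136147 (plus strand).
ADM2: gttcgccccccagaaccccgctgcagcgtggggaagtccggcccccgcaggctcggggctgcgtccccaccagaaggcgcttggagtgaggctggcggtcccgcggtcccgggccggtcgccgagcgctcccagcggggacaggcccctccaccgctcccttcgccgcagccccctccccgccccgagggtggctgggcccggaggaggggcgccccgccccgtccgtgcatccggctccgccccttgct
ERN1: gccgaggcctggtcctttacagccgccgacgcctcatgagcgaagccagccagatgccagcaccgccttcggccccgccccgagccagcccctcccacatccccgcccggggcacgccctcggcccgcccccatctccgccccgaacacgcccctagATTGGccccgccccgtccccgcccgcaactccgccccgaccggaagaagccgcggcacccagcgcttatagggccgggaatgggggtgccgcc
SEL1L: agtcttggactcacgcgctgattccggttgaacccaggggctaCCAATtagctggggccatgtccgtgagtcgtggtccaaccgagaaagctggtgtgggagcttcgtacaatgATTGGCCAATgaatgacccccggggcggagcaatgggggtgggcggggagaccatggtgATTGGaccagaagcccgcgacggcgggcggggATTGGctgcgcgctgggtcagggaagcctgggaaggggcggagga
ATF6: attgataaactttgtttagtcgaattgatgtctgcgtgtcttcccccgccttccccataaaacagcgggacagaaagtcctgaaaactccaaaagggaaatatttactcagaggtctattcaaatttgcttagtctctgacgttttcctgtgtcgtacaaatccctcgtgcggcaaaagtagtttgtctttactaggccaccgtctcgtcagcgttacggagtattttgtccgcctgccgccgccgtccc
E2F3: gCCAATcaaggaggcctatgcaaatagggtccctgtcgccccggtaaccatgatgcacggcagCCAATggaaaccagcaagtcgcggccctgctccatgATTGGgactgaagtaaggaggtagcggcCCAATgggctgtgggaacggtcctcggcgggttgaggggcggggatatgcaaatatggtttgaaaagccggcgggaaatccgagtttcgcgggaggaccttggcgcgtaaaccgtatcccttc
HES1: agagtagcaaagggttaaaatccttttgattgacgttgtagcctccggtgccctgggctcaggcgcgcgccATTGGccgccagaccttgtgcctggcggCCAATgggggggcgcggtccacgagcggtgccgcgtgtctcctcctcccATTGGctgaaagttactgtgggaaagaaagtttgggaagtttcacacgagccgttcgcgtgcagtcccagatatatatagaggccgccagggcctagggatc
The stretch before SEL1L held 5 CCAAT boxes, that of E2F3 held 4 and that of HES1 held 3, whereas ERN1 had 1 and neither ADM2 nor ATF6 had any. Base composition differed as much, from 47.2% G and C before ATF6 to 78.8% before ADM2.

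Among the higher members were ERN1, SEL1L and ATF6 of the unfolded protein response. ERN1 encodes IRE1α, the kinase and endoribonuclease that splices XBP1 mRNA. Its normalized counts were 749, 896 and 895 in DMSO, 878, 956 and 845 with AKTi, 757, 740 and 753 with EZH2i, and 2053, 2087 and 2085 in the combination. The 3 combination libraries were thus nearly equal, at 2053 or more, whereas the highest library of another arm had 956. On the log2 scale the edgeR fold change of ERN1 was 1.31 ± 0.067 (SE, n = 3 per arm) in the combination, 0.09 with AKTi and -0.17 with EZH2i.

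SEL1L, the adaptor that recruits misfolded proteins to the HRD1 ubiquitin ligase for degradation, was the second ER gene with a ratio above 2. It had 2200, 2096 and 2303 normalized counts in DMSO, 2367, 2358 and 2313 with AKTi, and 2446, 2679 and 2668 with EZH2i. Combination libraries had 4555, 4297 and 4497. Here the libraries of each agent alone already lay above the DMSO range, with ratios of 1.07 for AKTi and 1.18 for EZH2i, and the combination reached 2.02.

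ATF6, the sensor that is cleaved in the Golgi to become a transcription factor, rose from 1011, 1028 and 1136 normalized counts in DMSO to 2060, 1835 and 1938 in the combination. With AKTi it had 1078, 1138 and 1127, and with EZH2i 1178, 1287 and 1247. The combination libraries did not overlap any other arm, and the log2 fold change was 0.90 ± 0.063. The third sensor, EIF2AK3, had a ratio of 1.97 in the combination but was no member, because its ratio with EZH2i alone was 2.26.

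Most other genes of this response were lower. Of 35 eligible genes on a list of ER chaperones and unfolded protein response genes, 11 were higher and 22 lower in the combination than in DMSO (edgeR, adjusted p-value under 0.05), with a median log2 fold change of -0.36 against -0.14 over all eligible genes. Across all 16646 genes tested, 38.0% were called higher and 35.2% lower, and among the 10143 eligible genes 3609 were called higher and 4861 lower. HSPA5 (BiP), the major ER chaperone, had a ratio of 0.721, DNAJB11 of 0.454 and SDF2L1 of 0.239. HERPUD1, an ER degradation component, had a ratio of 1.65, with AKTi at 0.980 and EZH2i at 0.920, and so stayed below the combination threshold. These genes outside the selection were picked after their values were seen. SEC61A1, the pore of the translocon through which nascent proteins enter the ER, was on the same list and among the lower members, with 13570, 13800 and 14620 normalized counts in DMSO and 7804, 7627 and 7122 in the combination. Each agent alone already lowered it (ratios 0.826 and 0.812).

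ADM2 is on the list of genes that respond to ATF4, the transcription factor downstream of PERK. It had 1498, 1573 and 1683 normalized counts in DMSO, 1769, 1900 and 2019 with AKTi, 1369, 1168 and 1364 with EZH2i, and 5447, 5630 and 5253 in the combination. The single agents moved it in opposite directions, so that the product of their ratios was 0.982, against 3.44 with both. The lowest combination library was 2.6 times the highest of the other 9. Of the 36 eligible ATF4-responsive genes 23 were called higher and 10 lower, and ADM2 was the only one that met the thresholds.

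**Figure D2:**
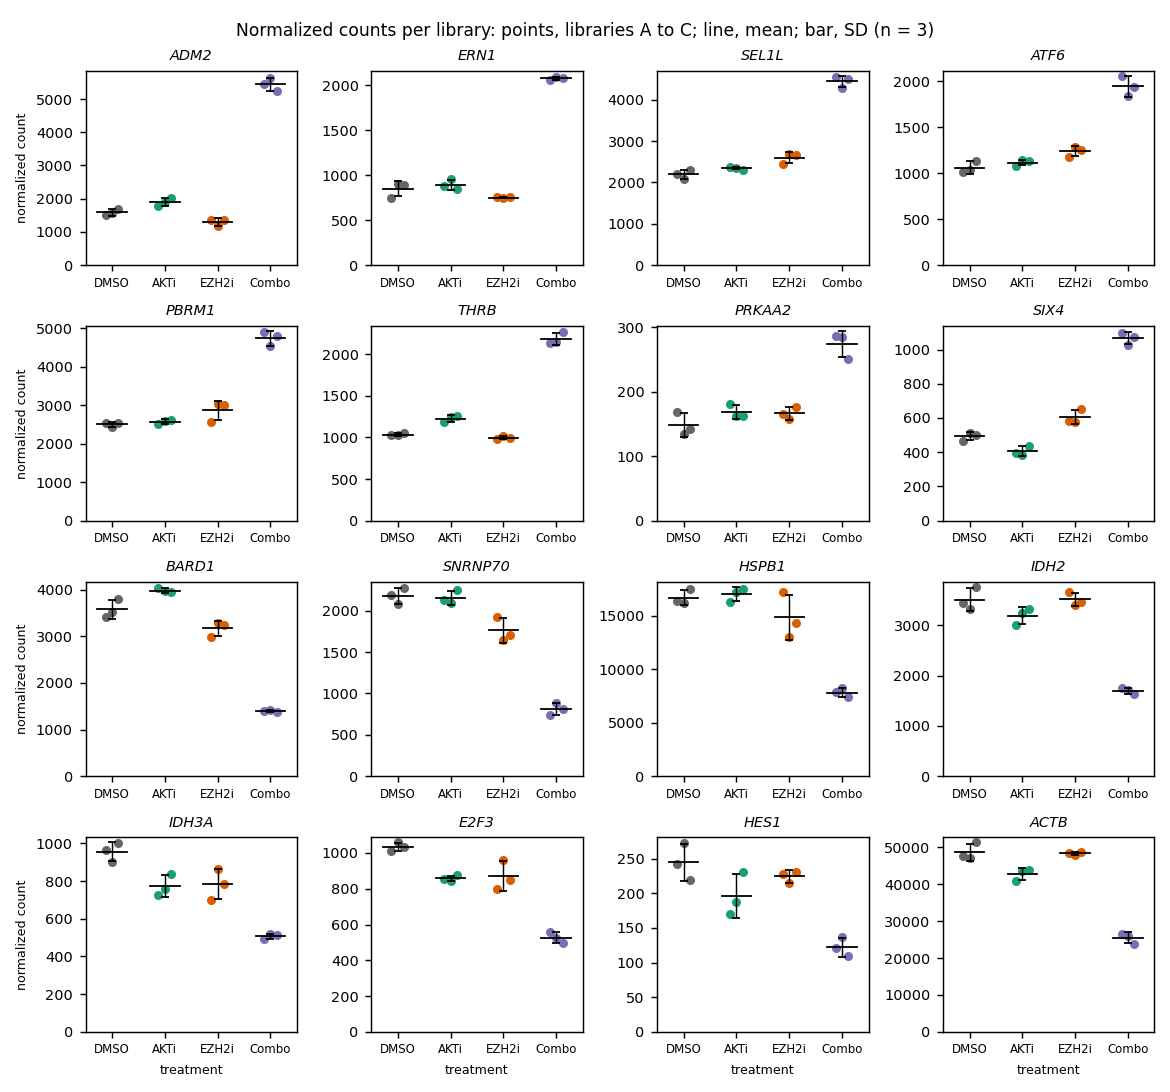
Normalized counts of 16 selected genes in each library (points), with the mean (line) and SD (bar) of the 3 libraries per arm. For the upper 8 genes the combination libraries lie above all others, such as 5253 to 5630 for ADM2 against at most 2019 elsewhere, and for the lower 8 genes below all others.

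Chromatin genes were also among the higher members. PBRM1, a subunit of the PBAF chromatin remodeling complex, had 2543, 2430 and 2544 normalized counts in DMSO, 2500, 2596 and 2616 with AKTi, 2577, 3030 and 2996 with EZH2i, and 4895, 4527 and 4794 in the combination. PHF1, which binds H3K36me3 and associates with PRC2, had 243, 250 and 245 in DMSO, 276, 286 and 292 with AKTi, 362, 240 and 300 with EZH2i, and 541, 589 and 587 in the combination. For PHF1 the EZH2i libraries spread over both sides of the DMSO range. JADE2, a scaffold of HBO1 histone acetyltransferase complexes, had a combination ratio of 1.92. The list of chromatin regulators had 173 eligible genes, of which 84 were called higher and 61 lower in the combination. PBRM1 was not on it.

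Transcription factors appeared in both directions. The deposited count table gives a transcription factor family for 6 of 33 higher genes (18.2%) and 3 of 42 lower genes (7.14%), against 8.29% of all eligible genes. THRB, the thyroid hormone receptor β, had 1033, 1024 and 1049 normalized counts in DMSO, 1181, 1243 and 1257 with AKTi, 980, 1012 and 999 with EZH2i, and 2137, 2144 and 2273 in the combination. SIX4, a homeobox factor, had 466, 515 and 501 in DMSO and 1096, 1028 and 1073 in the combination. AKTi alone lowered SIX4 to between 385 and 437 and EZH2i alone raised it to between 579 and 653, so its single-agent ratios (0.823 and 1.22) lay at opposite ends of the band. IRF7, which drives interferon genes, had a combination ratio of 1.95, and the zinc finger genes ZNF426 and ZNF518B had ratios of 1.85 and 1.81.

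Kinases appeared in both directions, with PRKAA2 and MAP3K5 higher and MAP3K6 lower. On the list of receptor and cytoplasmic kinases, 81 of 189 eligible genes were called higher and 70 lower in the combination. PRKAA2 encodes the α2 catalytic subunit of AMP-activated protein kinase, which responds to low cellular energy. It had 169, 134 and 142 normalized counts in DMSO, 181, 162 and 163 with AKTi, 165, 157 and 177 with EZH2i, and 286, 284 and 251 in the combination. MAP3K5 (ASK1), a stress-activated kinase, had 263, 259 and 292 in DMSO and 540, 537 and 518 in the combination, with both single agents between 262 and 323. MAP3K6 (ASK2), a close relative of MAP3K5 and picked after its values were seen, had 269, 310 and 296 in DMSO and 153, 158 and 131 in the combination (ratio 0.505). RICTOR, the defining subunit of mTOR complex 2, which phosphorylates AKT, had 455, 489 and 530 in DMSO and 911, 865 and 1054 in the combination, with ratios of 0.959 and 1.11 for the single agents. RICTOR was singled out after its values were seen. On the list of FOXO-responsive and AKT-regulated genes it was the only member among 53 eligible genes, of which 41 were called higher and 7 lower in the combination. CTDSP2, a small phosphatase, had a ratio of 1.89, as had TMEM87A, a Golgi membrane protein (1.9), while AGAP1, a GTPase-activating protein for Arf, had 2.18 and CNTNAP2, a neurexin-family adhesion protein, had 2.29.

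SNRNP70 and BARD1 were among the 4 lower members with the smallest ratios. SNRNP70 had 2184, 2084 and 2270 normalized counts in DMSO, 2124, 2088 and 2252 with AKTi, 1930, 1652 and 1705 with EZH2i, and 743, 888 and 808 in the combination. BARD1 had 3418, 3524 and 3810 in DMSO, 4035, 3962 and 3945 with AKTi, 2990, 3288 and 3236 with EZH2i, and 1404, 1422 and 1374 in the combination. BARD1 thus went up slightly with AKTi, down slightly with EZH2i (ratios 1.11 and 0.885), and to 0.391 with both, with a log2 fold change of -1.34 ± 0.056 in the combination. The product of its single-agent ratios was 0.983. EWSR1, an RNA-binding protein of the FET family, was at the edge of the band with each agent (0.804 and 0.801) and at 0.458 with both. HNRNPM, a splicing regulator, was similar (0.80, 0.835 and 0.506), and was chosen after its values were seen. On the list of RNA splicing and processing genes, 143 of 188 eligible genes were called lower and 21 higher in the combination. HNRNPM was the only member on that list, which did not include SNRNP70 or EWSR1.

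Among the metabolic genes in the lower group were 2 isocitrate dehydrogenase genes of the mitochondrion. IDH2, the NADP-dependent enzyme, had 3453, 3326 and 3759 normalized counts in DMSO, 3001, 3246 and 3325 with AKTi, 3666, 3408 and 3471 with EZH2i, and 1756, 1715 and 1640 in the combination. Its EZH2i libraries lay within the DMSO range, and the 95% intervals of both single-agent fold changes lay inside the band. IDH3A, the catalytic α subunit of the NAD-dependent enzyme of the TCA cycle, had 963, 902 and 1002 in DMSO, 727, 759 and 836 with AKTi, 702, 863 and 784 with EZH2i, and 493, 517 and 515 in the combination, so each agent already lowered it (0.810 and 0.819). Of 28 eligible genes of the TCA cycle and pyruvate oxidation, 27 were called lower in the combination and 1 higher. MDH2, malate dehydrogenase, picked after its values were seen, was outside the band with EZH2i alone (ratios 1.01, 0.700 and 0.432 for AKTi, EZH2i and the combination). Also lower were SLC16A3 (MCT4), the lactate exporter, with ratios of 1.19 with AKTi, 0.889 with EZH2i and 0.50 with both, and SLC35B4, a nucleotide sugar transporter of the Golgi (0.921, 0.887 and 0.494). SLC16A3 was the only member on the glycolysis list, where 22 of 25 eligible genes were called lower and 1 higher.

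HSPB1, the small heat shock protein Hsp27, had 16370, 16210 and 17470 normalized counts in DMSO, 16290, 17210 and 17520 with AKTi, 17180, 13020 and 14310 with EZH2i, and 7866, 8234 and 7362 in the combination. PRDX2, a peroxide-reducing enzyme, had a combination ratio of 0.470, GSTM3, a glutathione transferase, of 0.468, and UBB, a polyubiquitin gene, of 0.521. ACTB, β-actin, often used as a reference gene, had 47630, 47090 and 51290 in DMSO, 40760, 43590 and 43760 with AKTi, 48420, 47890 and 48800 with EZH2i, and 26550, 26030 and 23810 in the combination. Its log2 fold change in the combination was -0.92 ± 0.052, and its 3 EZH2i libraries lay within the DMSO range (ratio 0.994). The other cytoplasmic actin gene, ACTG1, picked after its values were seen, had ratios of 1.155, 1.212 and 1.299 for AKTi, EZH2i and the combination. On the list of cytoskeleton and adhesion genes 81 of 179 eligible genes were called higher and 77 lower, and ACTB was the only member. On the list of cytosolic chaperones 31 of 34 eligible genes were called lower, and HSPB1 was the only member.

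The lower transcription factors were E2F3, HES1 and RUNX2. E2F3, an activator of cell cycle genes, had 1012, 1059 and 1034 normalized counts in DMSO, 853, 845 and 875 with AKTi, 798, 962 and 851 with EZH2i, and 557, 524 and 498 in the combination. HES1, a NOTCH target, had 243, 273 and 219 in DMSO, 170, 188 and 231 with AKTi, 229, 214 and 231 with EZH2i, and 121, 137 and 110 in the combination. RUNX2, the osteoblast factor, had 143, 135 and 160 in DMSO and 73.8, 84.2 and 80.4 in the combination. HES1 and RUNX2 had few counts, and their standard errors (0.14 and 0.16) were among the larger ones. The remaining lower genes named by the same criteria were PLPP1, a lipid phosphatase (0.458), DOLK, dolichol kinase (0.467), and NACC1, a BTB-domain regulator of transcription (0.468).

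To account for every gene, the rest are named here after their values were seen. The other higher genes, with ratios between 1.82 and 2.01, were RAB24, CEP350, NFKBIL1, NBPF11, RCBTB1, MID2, FCHO2, TMEM56, ARSK, KIZ and HERPUD2. The other lower genes, with ratios between 0.473 and 0.544, were PI4K2B, MAGEA2B, DOHH, METRN, DPP3, NCS1, MPP2, TUSC2, PICK1, CSPG5, LRRC20, NUP93, PDK3, INTS9, PLOD1, AARS2, MMP15 and LPAR2. MAGEA2B was the least certain member. It had 125, 309 and 150 normalized counts with AKTi and 303, 98.6 and 175 with EZH2i, which span both the DMSO libraries (197 to 256) and the combination libraries (102 to 117). It has a near-identical copy, MAGEA2, and reads that match both may not be assigned to the right gene. Similar sequences elsewhere may also affect counts within the NBPF family, for UBB and for ACTB. How such reads were counted is not given, and their part in these values was not tested.

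Selection placed the single-agent means near DMSO but did not place them at DMSO. AKTi alone passed the edgeR test (adjusted p-value under 0.05) for 8 of the 33 higher genes and 18 of the 42 lower genes, where 42.5% of all 16646 genes tested, 58.1% of eligible genes and 27.1% of the genes in the band were called. EZH2i alone passed it for 17 higher and 27 lower genes, with 64.1% called among all genes, 76.2% among eligible genes and 37.8% among those in the band. At least 1 agent alone was called for 18 of 33 (54.5%) and 31 of 42 (73.8%), compared with 51.5% of the 3123 genes in the band. The AKTi and EZH2i libraries all lay outside the DMSO range for 12 and 19 higher genes and for 20 and 22 lower genes, where 65.3% and 76.7% of eligible genes did so. These counts depended on scaling, since AKTi was called for 15 higher genes by library size or upper quartile, and EZH2i for 7 lower genes by library size and 13 by upper quartile. Without DMSO library B or EZH2i library C, EZH2i was called for 8 or 9 higher genes.

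Most single-agent changes, small as they were, pointed the way of the combination. Both single-agent ratios were above 1 in 22 of 33 higher genes and below 1 in 34 of 42 lower genes. Median AKTi and EZH2i ratios were 1.07 and 1.14 for the higher genes and 0.901 and 0.843 for the lower genes. Over all genes in the band they were 0.995 and 0.983. The rule used these ratios, and the matching share of all genes in the band was not counted, so nothing further is read from these counts. AKTi was lower and EZH2i higher than DMSO for 6 higher and 2 lower genes, and the reverse for 4 higher genes (ADM2, MTURN, ERN1 and THRB) and 5 lower genes (BARD1, HSPB1, SLC16A3, METRN and CSPG5). BEST1 was the only higher gene that both agents moved down, and DPP3, a peptidase, the only lower gene that both moved up. The 95% intervals of both single-agent fold changes lay inside the band for 3 higher genes (ERN1, MID2 and TMEM87A) and 11 lower genes (BARD1, NACC1, HSPB1, IDH2, SLC35B4, ACTB, PICK1, LRRC20, NUP93, PLOD1 and MMP15), compared with 36.4% of all genes in the band. For each other member the interval of at least 1 agent reached beyond the band.

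**Figure D3:**
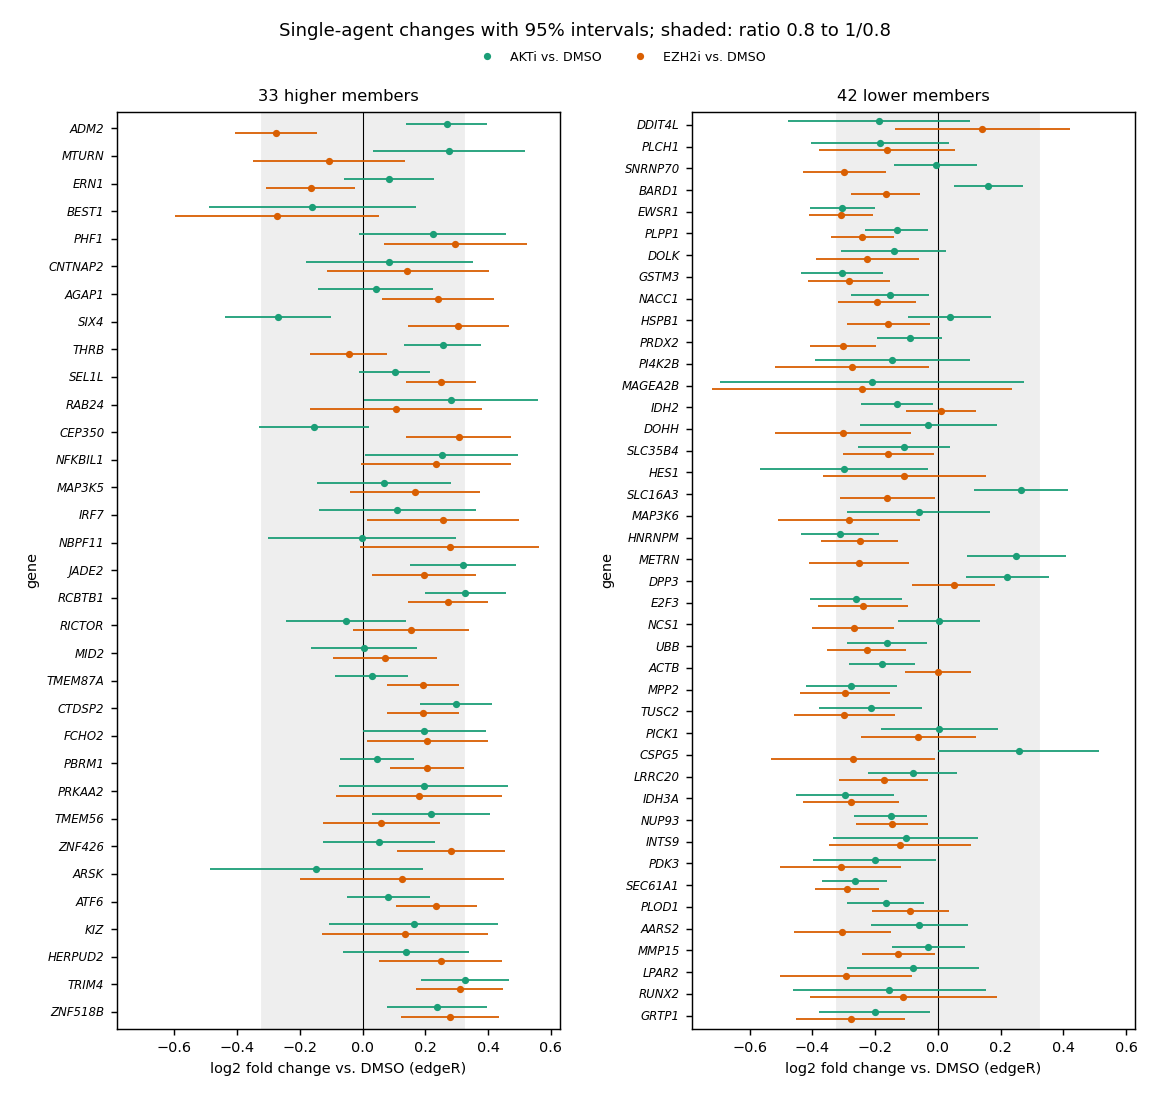
Log2 fold change of each selected gene with AKTi (green) and EZH2i (orange) against DMSO, with 95% intervals from edgeR, and the range of ratios from 0.8 to 1/0.8 shaded. Points fall mostly to the right of 0 for the 33 higher genes and to the left for the 42 lower genes, and many intervals reach beyond the shading. RCBTB1 and TRIM4 sit at its edge with AKTi on this TMM scale, which is not the scale used for selection.

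The combination differed from each arm in the edgeR test for every selected gene, which the thresholds nearly fix. All 33 higher genes were called above DMSO (38.0% of all genes), above AKTi (32.1%) and above EZH2i (21.1%). All 42 lower genes were called below DMSO (35.2%), below AKTi (32.1%) and below EZH2i (25.7%). The 3 combination libraries lay above all 9 others for 33 of 33 higher genes, which 18.2% of eligible genes did, and below all 9 others for 41 of 42 lower genes, against 29.7%. Median log2 fold changes against DMSO were 0.96 and -0.96, with standard errors of 0.054 to 0.15 and 0.051 to 0.25. The coefficient of variation among the 3 combination libraries had a median of 4.34% for the higher and 5.67% for the lower genes. In bulk RNA, fewer transcripts per cell and fewer cells that express a gene cannot be told apart.

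Interaction estimates compare the combination with the sum of the single-agent changes on the log2 scale. They ranged from 0.24 to 1.81 for the higher genes (median 0.69) and from -1.41 to -0.32 for the lower genes (median -0.65). The interaction was called for 32 higher genes (10.7% of all genes were called above the sum) and 41 lower genes (17.5% below it), TRIM4 and MAGEA2B being the exceptions. Since the band limits the product of the single-agent ratios to between 0.64 and 1.5625, a selected gene lies beyond this product by construction. By size, the combination exceeded the product by a median factor of 1.61 for the higher genes, up to 3.5 for ADM2, and fell short of it by a median factor of 1.57 for the lower genes, up to 2.67 for DDIT4L.

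**Figure D4:**
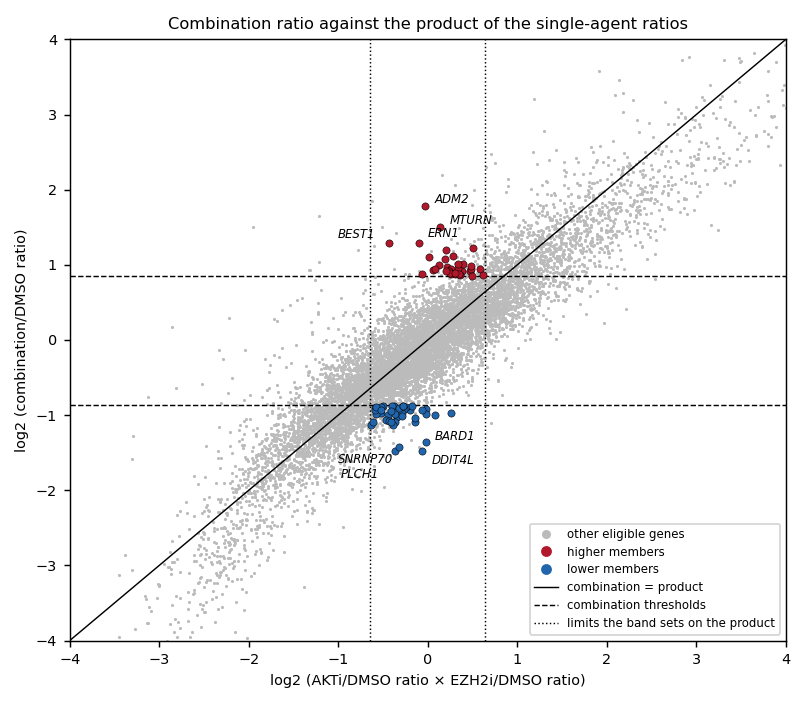
Ratio to DMSO in the combination against the product of the AKTi and EZH2i ratios, both on the log2 scale, for 10143 eligible genes (83 lie outside the axes, no selected gene among them). The 33 higher (red) and 42 lower (blue) genes sit at the upper and lower margins of the cloud, between the dotted limits that the single-agent band sets and beyond the dashed combination thresholds.

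Such genes were a small part of those that responded to the combination. Of 1454 eligible genes at or above the upper threshold, 33 (2.27%) were in the single-agent band, 970 left it with both agents, 395 with EZH2i alone and 56 with AKTi alone. At or below the lower threshold were 2164 genes, with 42 (1.94%) in the band, 1416 outside it with both agents, 668 with EZH2i alone and 38 with AKTi alone. The thresholds cut through a continuum. ZNF518B (1.807) and TRIM4 (1.818) were just inside and MYLIP (1.797) and PTPN14 (1.794) just outside at the upper end, and GRTP1 (0.546) and RUNX2 (0.544) just inside and SSR4 (0.551) and TECR (0.552) just outside at the lower end.

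The scaling of the libraries decided much of the membership. With TMM scaling the same thresholds gave 37 higher genes, 31 of them shared, and 38 lower genes, 36 of them shared. With library size alone they gave 44 and 40 genes, of which 11 and 12 were shared. Over all tested genes the combination had a median log2 fold change of 0.06 after TMM and 0.26 by library size alone, which moves all ratios up together. Leaving out each library in turn kept 12 of 33 and 15 of 42 genes in all 12 selections. The direction of the combination against DMSO did not change for any of the 43 genes named by the criteria under any alternative tried. The thresholds nearly fix this, because the genes were chosen on that ratio in the same libraries.

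To read the pattern in libraries that had no part in the choice, the genes were chosen again on 8 libraries after 1 replicate letter was dropped from every arm, and the ratios were read in the 4 dropped libraries. The genes so chosen numbered 26 to 41 higher and 37 to 52 lower. In the dropped libraries every gene had a combination ratio on the same side of 1. The thresholds passed in the 8 libraries of the same arms make this likely, and the matching share of other genes was not counted. The combination threshold itself was passed in the dropped libraries by 19 of 26, 29 of 41 and 27 of 40 higher genes and by 26 of 40, 30 of 52 and 32 of 37 lower genes. Median dropped-library ratios were 1.92 to 2.03 for higher and 0.461 to 0.535 for lower genes. Single-agent ratios were less stable. Both single-agent ratios stayed within the band in the dropped libraries for 14 of 26, 16 of 41 and 27 of 40 higher genes and for 27 of 40, 23 of 52 and 17 of 37 lower genes, each from 1 library per arm. All thresholds together were met in the dropped libraries by 10, 11 and 16 higher genes and by 15, 12 and 14 lower genes.

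Of the 33 gene lists examined, 14 held no member, among them several with nearly uniform responses. With only 33 higher and 42 lower members among 10143 eligible genes, lists of these sizes would mostly hold none at the overall share. An empty list is thus no result about its genes. In the combination 91 of 96 eligible respiratory chain genes were called lower and 1 higher, and 66 of 68 genes on a DNA replication and repair list, which does not include BARD1, were called lower and 1 higher. The lists of mitochondrial translation (81 of 83 lower), ribosome assembly (64 of 68 lower) and nucleotide synthesis (37 of 39 lower) likewise held no member. AARS2, the mitochondrial alanyl-tRNA synthetase and a lower member, was not on the first of these lists. Androgen-responsive genes, of which 23 of 31 were called higher and 6 lower, and circadian clock genes, of which 14 of 17 were called higher and 1 lower, also held none. Of the higher members 15 were on a list, and of the lower members 14, but the share of all eligible genes on any list was not counted.

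Features that played no part in the choice differed between the 2 groups. The higher genes were longer, with a median gene length of 6532 bases in the count table, and the lower genes shorter, with 4395, against 5350 over all eligible genes. Of the 33 higher genes 15 were in the longest tertile of eligible genes and 6 in the shortest, and of the 42 lower genes 6 and 18. Length also moved with the response of all eligible genes, whose median log2 fold change in the combination was -0.44 in the shortest tertile, -0.16 in the middle and 0.16 in the longest. The part of length in the selected genes' values was not tested. The genes were spread over 17 and 18 chromosomes, with at most 5 higher genes on 1 chromosome (1 and 5) and at most 6 lower genes (19).

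Promoters were matched to RefSeq for 28 of 33 higher and 37 of 42 lower genes, in windows of 300 bases that run from 250 before the start to 50 after it, and searched on both strands. The median G and C content was 65.0% and 66.0%, against 65.7% over 8203 eligible genes. CCAAT boxes stood in 28.6% of higher, 37.8% of lower and 37.7% of eligible windows, and in 35.7% of all 27305 RefSeq windows. The GC box GGGCGG, bound by SP1, stood in 89.3% and 67.6% of the higher and lower windows, against 72.4% of eligible and 44.6% of all windows. The hypoxia core ACGTG was in 42.9% of higher windows (12 of 28), 24.3% of lower windows (9 of 37), 28.2% of eligible windows and 21.6% of all. The E-box CACGTG, which MYC binds and in which the hypoxia core is contained, was in 17.9%, 13.5% and 10.8% of higher, lower and eligible windows and in 7.43% of all, among them PBRM1. The FOXO core GTAAACA was in the windows of MTURN and FCHO2 and in none of the lower genes, against 2.24% of eligible and 3.41% of all windows, and the ATF4 composite element TGATGNAA was in none of the selected genes, ADM2 included. The CREB site TGACGTCA, the AP-1 site TGANTCA, the ETS core CCGGAAGT, the NRF1 core GCGCATGCG, the YY1 core AAGATGGCG and the E2F site TTTCCCGC were each in at most 2 windows per direction. They were in 3.49%, 3.88%, 10.3%, 4.11%, 4.58% and 2.9% of eligible windows and in 1.98%, 7.76%, 4.44%, 2.1%, 1.85% and 1.66% of all windows. With 28 and 37 windows these shares rest on few genes and describe letters, not binding.

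Reads from overlapping genes limit some values, and the strand setting of the counting is not given in the sources used here. In each group 10 genes overlapped another expressed gene, and for 6 higher and 8 lower genes the overlapping gene had more than 10% of the selected gene's mean. BEST1 overlaps FTH1 on the opposite strand, which had 11320 normalized counts on average against 167 for BEST1. PHF1 overlaps CUTA, SLC16A3 overlaps CSNK1D, PBRM1 overlaps GNL3, RICTOR overlaps OSMR and RUNX2 overlaps SUPT3H, also on opposite strands. ADM2, ERN1, SEL1L, ATF6, BARD1, SNRNP70, IDH2 and HSPB1 had no such overlap above that share.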

How the data were processed

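PolyA RNA of C4.2B cells was sequenced in 12 libraries. Per the labels and the submitters' processing notes, the authors aligned reads to hg38 with STAR and counted them with HTSeq. They deposited a raw count per gene with a gene length column, and signal values that are counts normalized by DESeq2, which equal each count divided by 1 factor per library. Selection used the deposited normalized signal. Raw counts were analysed in R 4.3.3 with edgeR 4.0.16, after filterByExpr (minimum count 10, minimum total 15; 16646 genes) and TMM, with the 4 arms as coefficients and all 12 libraries in the fit, and Benjamini-Hochberg adjustment at 0.05. Error is the spread between triplicate libraries of 1 cell line, which may be technical. DESeq2 1.42.0 was an alternative. Ratios and plots were made with Python 3.11.15.

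The members, 33 gene lists and 12 promoter motifs were chosen with earlier results of these data known. Genes named, in each direction, were the 10 largest ratios, the 5 highest means, members of a list with 2 or more members (the 4 largest changes of the broad lists), the 2 nearest each side of the threshold, and the 3 widest gaps between the combination and the other libraries. Tumors, proteins and chromatin data were not analysed here. Some marker genes are not reported here.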

Additional observations from a re-analysis of the deposited data

How the results depend on the processing

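Counts of selected genes followed the thresholds. A band of 0.85 to 1/0.85 left 13 higher and 17 lower genes and a band of 0.75 to 1/0.75 gave 74 and 96. A combination threshold of 0.5 or 2 left 11 and 17, and no expression minimum gave 71 and 75. Leaving out 1 library gave 28 to 42 higher and 33 to 50 lower genes. AKTi calls among the higher genes numbered 15 by library size only and by upper quartile (8 with TMM), with 7 to 10 when 1 library was left out. EZH2i calls among the lower genes numbered 7 and 13 under these scalings (27 with TMM), and among the higher genes 8 to 17 when 1 library was left out. The median log2 fold change of the higher genes in the combination was 1.16 by library size only, 1.15 by upper quartile, 0.93 without the filter (every gene with a count) and 0.943 with only the 6 libraries compared, and 0.903 to 0.986 when 1 library was left out. That of the lower genes was -0.76 and -0.772 under the 2 scalings and -1.02 to -0.921 when 1 library was left out. Both medians moved up under these scalings, under which the median over all genes tested went from 0.062 to 0.259 and 0.247, and to 0.143 without the filter. The cause of the other differences was not tested.

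Whether replicate letters mark shared plates or days is not stated. Correlations of deviations from the arm means ran from -0.0583 to 0.0688 for libraries of the same letter and from -0.0685 to 0.0574 for different letters. They cannot show whether plates or days were shared. With the letter as a replicate block, the calls numbered 8 and 17 for the higher genes (AKTi and EZH2i) and 18 and 27 for the lower genes, 33 and 42 in the combination, and 32 and 41 for the interaction, equal to those without the block, and the medians were 0.963 and -0.957. For the combination against DMSO, all 774 alternative values of the 43 named members kept direction and call, which the thresholds nearly fix. Single-agent calls were not stable in this way, as given above. Members with few counts, such as BEST1, ARSK, HES1, RUNX2 and MAGEA2B, have the widest intervals, and 3 libraries per arm of 1 line limit all of them.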

Other observations

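Genes of other biotypes were held to the same thresholds. Of 616 with a mean of at least 100, 194 were in the single-agent band, 4 were higher in the combination and 3 were lower. LINC00847, a long intergenic non-coding RNA, had 232, 190 and 198 normalized counts in DMSO, 189, 203 and 218 with AKTi, 207, 213 and 287 with EZH2i, and 451, 409 and 434 in the combination (ratio 2.09). The others that were higher were AC015813.1 (2.08), the pseudogene AMZ2P1 (1.92) and the antisense transcript ZBED3-AS1 (1.83). LINC02197 had 519, 491 and 462 in DMSO, 526, 438 and 506 with AKTi, 501, 490 and 491 with EZH2i, and 246, 256 and 256 in the combination, so that its single-agent ratios were 0.999 and 1.01 and its combination ratio 0.515. LINC01719 (0.399) and PCAT19, a prostate cancer associated transcript (0.536), were lower too. For all 7 the 3 combination libraries did not overlap the libraries of any other arm. The thresholds nearly fix this, and the matching share of the 616 genes was not counted, so nothing further is read from it.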
